A study of Mus musculus with 3 samples.

Results

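The histone genes of the Hist clusters were examined in RNA-seq of bone marrow (BM) Ly6G+ myeloid cells from mice given an IL-27 vector or a control vector. All rows of the expression table whose symbol starts with Hist1h, Hist2h, Hist3h or Hist4h were taken, which gave 63 of 16072 named genes. They comprised 6 genes for the linker histone H1, 17 for H2A, 16 for H2B, 12 for H3 and 12 for H4. The measurements cover 3 libraries, 2 labelled AAV-ctrl and 1 labelled AAV-IL27 (the label gives it the replicate number 2). All mice were C57BL/6 animals and aged 6 to 10 weeks. Every animal, controls included, carried a subcutaneous B16.F10 melanoma graft, placed 1 week ahead of the intramuscular vector, and marrow was taken 3 weeks later. AAV-IL27 is an adeno-associated virus in which the CAG promoter, which is active in most tissues, drives both chains of IL-27 as 1 linked protein, and AAV-ctrl is the empty vector. The labels count 4 mice but describe 2 AAV-ctrl animals and 1 AAV-IL27 animal.

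Core histones H2A, H2B, H3 and H4 form the protein spool around which DNA is wound, and H1 binds the linker between spools. The genes of the Hist clusters are known as replication-dependent, because dividing cells make most of their histone mRNA while they copy DNA. Most of these mRNAs have no poly(A) tail and end just after a conserved RNA stem-loop, which stem-loop binding protein (Slbp) holds. Some cluster genes can also be read through the stem-loop to a poly(A) signal further on, and these polyadenylated forms are known from cells that have stopped dividing. Neutrophils, the cells that carry most Ly6G in mouse marrow, lose the ability to divide as they mature.

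The libraries were made from RNA selected with oligo-dT, which binds poly(A) tails, so tailless histone mRNA was measured only as far as it was carried along. Because of this selection, a value below is the level of captured transcript. The sequence that ends most histone mRNAs is shown for the members with the highest levels that carry it and lie in the tested set, so that the class-specific stem can be compared. It was read from the GENCODE M21 transcript on GRCm38, and the capitals mark the stem-loop of 16 bases, searched by the letters that this conserved motif shares between histone genes, on the gene's strand after the stop codon.

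Hist2h2aa1, chr3:96246032-96246047, plus strand: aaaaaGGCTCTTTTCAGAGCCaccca
Hist1h2ao, chr13:21810898-21810913, plus strand: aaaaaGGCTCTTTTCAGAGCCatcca
Hist1h2ap, chr13:21833029-21833044, minus strand: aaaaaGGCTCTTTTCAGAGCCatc
Hist1h1c, chr13:23739512-23739527, plus strand: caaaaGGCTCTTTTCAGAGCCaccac
Hist3h2a, chr11:58955172-58955187, plus strand: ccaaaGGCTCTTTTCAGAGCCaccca
Hist1h4i, chr13:22040966-22040981, minus strand: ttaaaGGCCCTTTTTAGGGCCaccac
Hist1h4m, chr13:21812129-21812144, plus strand: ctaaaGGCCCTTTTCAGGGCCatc
Hist2h3c2, chr3:96238485-96238500, minus strand: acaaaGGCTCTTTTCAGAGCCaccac

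The coordinates are those of the capitals, and the lower-case letters are the neighbouring bases of the transcript. A stem-loop was found in 42 of the 62 members with a coding GENCODE transcript, and a single genomic position was obtained for 41 of them. The form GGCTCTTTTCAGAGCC occurred in 24 members, none of them an H4 gene. All 10 H4 genes with a position had another stem, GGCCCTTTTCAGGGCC in 6 of them, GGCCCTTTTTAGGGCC in 2 and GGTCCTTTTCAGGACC in 2. Of the 20 members without a match, 12 had transcripts annotated for fewer than 20 bases after the stop codon, so the window held no room for it.

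The members lie in 5 groups in the genome. Hist1 on chromosome 13 held 21 members between 21715711 and 22043658 and 29 between 23531044 and 23764412. Hist2 on chromosome 3 held 9 members between 96220413 and 96270192, Hist3 on chromosome 11 held 2 between 58948911 and 58955192, and Hist4 held Hist4h4 alone on chromosome 6 between 136803993 and 136804431 (GRCm38.p6, RefSeq). Hist1h2al lay apart on chromosome 13, between 51200084 and 51203066, with no coding transcript.

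Expression is given as FPKM, fragments scaled to transcript length and to the size of the library. Capture by oligo-dT and the length used may differ between genes, so ranks between genes are ranks of captured transcript. Depth was estimated at 19500000, 19700000 and 19300000 fragments for AAV-ctrl 1, AAV-ctrl 2 and AAV-IL27 from the steps between low FPKM values, and fragment numbers below are estimates from this depth. All 13 late neutrophil genes were above 0 in each library, with S100a9, a calcium-binding protein abundant in neutrophils, at 73508, 71786 and 68765 FPKM and Ly6g itself at 712, 766 and 586 FPKM. Differences are log2(FPKM + 1) in AAV-IL27 minus the mean of AAV-ctrl 1 and AAV-ctrl 2. A gene was called lower or higher if both AAV-ctrl libraries were at least 1 log2 unit away on the same side, and 9130 genes whose FPKM averaged at least 1 were tested in this way. With 1 AAV-IL27 library in the labels there is no replicate error on that side, so no test was run and the AAV-ctrl pair gives the only measure of spread.

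Captured cluster histone transcripts were few, and a handful of genes made up most of them. The summed FPKM of all 63 members was 550 in AAV-ctrl 1, 556 in AAV-ctrl 2 and 612 in AAV-IL27, which was 0.0926%, 0.0948% and 0.107% of each library's FPKM total. The median member had a mean level of 0.323 FPKM, against 1.87 FPKM over all named genes. Only 17 members reached a mean of 1 FPKM, 10 reached 5 FPKM and 5 reached 50 FPKM. The 5 highest members, Hist2h2aa1, Hist1h2ap, Hist1h1c, Hist1h2bc and Hist1h2ao, held 84.5%, 86.9% and 86.3% of the summed FPKM. The other 46 members ranged from 0 to 0.793 FPKM in their mean, and Hist1h4a, Hist1h4j and Hist2h3c1 were listed at 0 in every library.

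No cluster histone gene passed the threshold in either direction. Of the 17 tested, 0 were lower and 0 were higher, where 2.32% of all tested genes were lower (212 of 9130) and 0.307% were higher (28 of 9130). With shares this small, 0 of 17 does not set the members apart from other genes. The members' median difference was 0.14 log2 units (range -0.55 to 0.68), against -0.01 over all genes. This direction depends on the filter, the median being -0.068 over all 63 members and 0.25 over the 10 with a mean of at least 5 FPKM. Counting position alone, 8 members lay above both AAV-ctrl libraries, where 38.9% of all tested genes did, and 4 lay below both, where 41.9% did. The remaining 5 fell between the controls. Because Hist1h2bq and Hist1h2br carried the same values in every library, the 8 include 1 value counted for both.

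**Figure D1:**
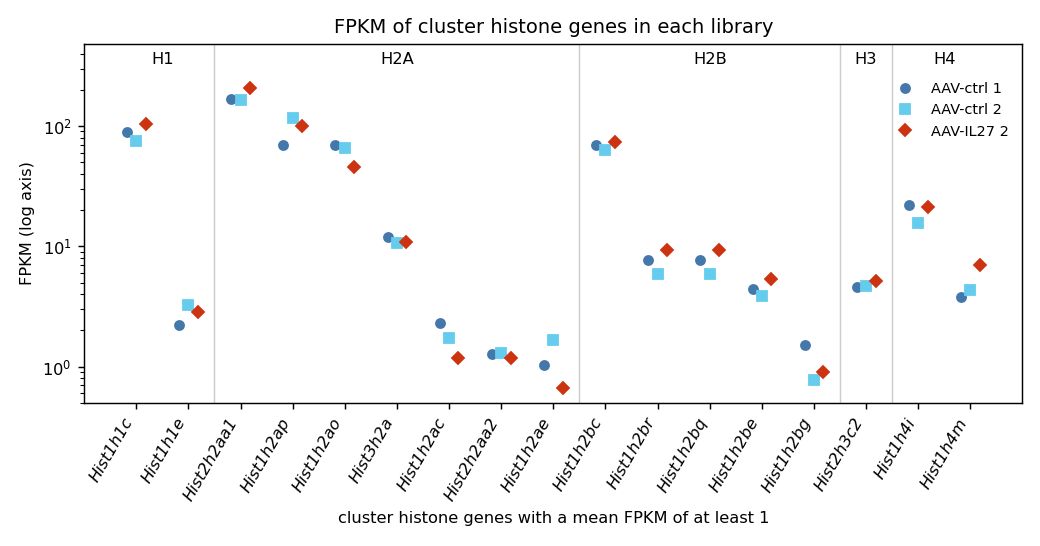
FPKM on a log axis of the 17 cluster histone genes with a mean of at least 1 FPKM, grouped by histone class, with 1 point for each of the 3 libraries. The AAV-IL27 point lies above both AAV-ctrl points for 8 genes and below both for 4, and no gene is separated from both controls by 1 log2 unit on the log2(FPKM + 1) scale.

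Among the H2A genes, which make a core histone of the nucleosome, Hist2h2aa1 was the highest cluster histone gene. It stood at 168 FPKM in AAV-ctrl 1, 165 in AAV-ctrl 2 and 206 in AAV-IL27, or about 1563, 1546 and 1892 fragments. The controls lay close together and the AAV-IL27 library lay above both, by 0.30 log2 units against their mean. The gene (chromosome 3, 96245497 to 96246052, plus strand) has a copy, Hist2h2aa2 (96239779 to 96240374, minus strand), whose transcript was identical over all 528 aligned bases. Hist2h2aa2 was nevertheless listed at 1.28, 1.29 and 1.18 FPKM. The split between identical copies cannot be read from their sequence, so the pair's sum is given as well. The sum was 170 FPKM in AAV-ctrl 1, 166 in AAV-ctrl 2 and 207 in AAV-IL27, and the difference stayed at 0.30.

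Hist1h2ao and Hist1h2ap are a second pair of H2A genes with identical sequence, over 452 aligned bases. Hist1h2ao (chromosome 13, 21810367 to 21810918) was listed at 70.0 FPKM in AAV-ctrl 1, 65.1 in AAV-ctrl 2 and 45.7 in AAV-IL27, which gave the lowest difference among the 17 tested members, -0.55 log2 units. Hist1h2ap (21833024 to 21833475) was listed at 69.3, 116 and 99.3 FPKM. The AAV-IL27 library was below both controls for the first copy and between them for the second, and the controls themselves differed by 0.74 log2 units for Hist1h2ap. Summed over the pair, the levels were 139, 181 and 145 FPKM. The FPKM sum in AAV-IL27 lay between the controls, with a difference of -0.13 log2 units where the controls were 0.38 apart. The copies are 552 and 452 bases long in RefSeq, so the FPKM sum still moves with the split. In estimated fragments, which count once whichever copy they were given to, the pair held 1147, 1456 and 1129, and AAV-IL27 lay below both controls. Divided by depth, AAV-IL27 and AAV-ctrl 1 were not separated by counting error (58.5 against 58.8 fragments in 1000000, 95% Poisson intervals 55.1 to 62.0 and 55.5 to 62.3), and both lay below AAV-ctrl 2 at 73.9.

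The remaining H2A genes were low. Hist3h2a, the H2A gene of the Hist3 cluster (chromosome 11, 58954685 to 58955192), was at 12.0, 10.6 and 10.9 FPKM, with AAV-IL27 between the controls. Hist1h2ac was at 2.31, 1.74 and 1.19 FPKM (about 18, 14 and 9 fragments) and Hist1h2ae at 1.04, 1.67 and 0.67 FPKM (about 10, 16 and 6 fragments). Both lay below both controls, at a depth where the 95% counting intervals overlap. The class as a whole summed to 327, 364 and 367 FPKM, so that AAV-IL27 stood next to AAV-ctrl 2 and the difference of 0.09 log2 units was smaller than the 0.15 between the controls.

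Hist1h1c encodes H1.2, a linker histone found in most cell types. It was at 88.4 FPKM in AAV-ctrl 1, 74.7 in AAV-ctrl 2 and 103 in AAV-IL27 (about 1112, 949 and 1287 fragments). The AAV-IL27 library was above both controls, by 0.34 log2 units against their mean, where the controls were 0.24 apart. This gene (chromosome 13, 23738807 to 23739531) differs from Hist2h2aa1, Hist1h2ao and Hist1h2ap in that 94.9% of its 100-base windows occurred in no other annotated transcript. The windows cover its GENCODE transcript of 1560 bases, against 725 in RefSeq. How far its value depends on the split among similar genes was not tested. Hist1h1e, the gene for H1.4, was at 2.21, 3.28 and 2.86 FPKM with AAV-IL27 between the controls. The other 4 H1 genes, Hist1h1a, Hist1h1b, Hist1h1d and the testis gene Hist1h1t, were at 0.51 FPKM or less in every library.

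H2B genes were led by Hist1h2bc at 69.2, 62.7 and 74.0 FPKM, above both controls by 0.17 log2 units against their mean. Its annotated transcript is spliced, with 2 exons, lacks the stem-loop and holds AATAAA, the usual poly(A) signal, after the stop codon. Hist1h2bq and Hist1h2br are also spliced and identical over 1254 aligned bases, and each was listed at 7.76, 5.91 and 9.40 FPKM. Their sum of 15.5, 11.8 and 18.8 FPKM put AAV-IL27 above both controls by 0.44 log2 units against their mean, where the controls were 0.37 apart. Hist1h2be, spliced too but with a stem-loop in its transcript, was at 4.41, 3.86 and 5.35 FPKM, and Hist1h2bg at 1.51, 0.78 and 0.90 FPKM. For 4 of the 5 tested H2B genes the AAV-IL27 library was the highest of the 3, Hist1h2bg being the exception. Over all tested genes 38.9% lay above both controls, and the 4 count the shared value of Hist1h2bq and Hist1h2br for both genes.

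H3 and H4 genes were scarce. Hist2h3c2 was the only H3 gene to reach 1 FPKM, at 4.61 in AAV-ctrl 1, 4.64 in AAV-ctrl 2 and 5.13 in AAV-IL27. These values rest on about 51, 52 and 56 fragments and are not separated at this depth. Hist1h4i, the highest H4 gene, was at 22.0, 15.5 and 21.4 FPKM, with AAV-IL27 within the controls' range. Hist1h4m had the highest difference of the tested members, 0.68 log2 units, at 3.76, 4.30 and 7.04 FPKM, from about 24, 28 and 44 fragments with 95% Poisson intervals of 15.4 to 35.7, 18.6 to 40.5 and 32.0 to 59.1. The intervals of AAV-ctrl 2 and AAV-IL27 overlap, and only 11.9% of its 100-base windows were unique to it, against 84.9% for Hist1h4i. The windows cover GENCODE transcripts, and that of Hist1h4i has 727 bases against 403 in RefSeq. All 12 H4 genes with a coding sequence encode the same protein. Hist4h4, the lone gene of the Hist4 cluster, was at 0.14 FPKM in each library, which is about 1 fragment, and Hist3h2ba, the H2B gene of Hist3, was at 0.40, 1.05 and 0.27 FPKM.

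**Figure D2:**
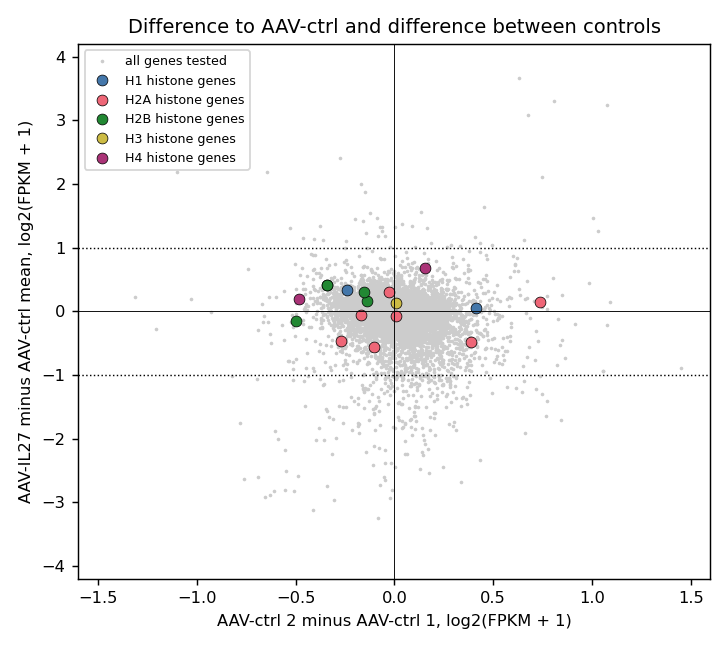
Difference of AAV-IL27 to the AAV-ctrl mean (vertical) against the difference between the AAV-ctrl libraries (horizontal), both in log2(FPKM + 1), for all 9130 tested genes in grey and the 17 cluster histone genes coloured by class, with dotted lines at 1 log2 unit. The histone genes stay between -0.55 and 0.68 on the vertical axis while Hist1h2ap lies at 0.74 on the horizontal one.

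The differences were set beside the gap between the controls. The median absolute difference over the 17 members was 0.30 log2 units between AAV-IL27 and the AAV-ctrl mean and 0.24 between the AAV-ctrl libraries. Both exceeded the values over all tested genes, 0.14 and 0.09. The absolute difference was larger than the control gap for 12 of the 17 members, such as Hist2h2aa1 (0.30 with a gap of -0.03) and Hist1h4m (0.68 with a gap of 0.16). It was smaller for 5, such as Hist1h2ap (0.14 with a gap of 0.74). How often this held over all tested genes was not counted. When each control was set against the other libraries in the same way, AAV-ctrl 2 was the lowest library for 9 members (32.3% of all tested genes) and the highest for 4 (34%), and AAV-ctrl 1 the lowest for 4 (25.2%) and the highest for 5 (26.6%). No member lay 1 log2 unit from both other libraries in any of these comparisons.

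Summed over a class, FPKM depends less on how fragments were shared out among copies, apart from the differing lengths of the copies. The H1 sum was 91.2 FPKM in AAV-ctrl 1, 78.9 in AAV-ctrl 2 and 107 in AAV-IL27, and the H2B sum 95.1, 83.9 and 102 FPKM. Both were highest in AAV-IL27, by 0.33 and 0.19 log2 units against the control mean, where the controls differed by 0.21 and 0.18. The H4 sum was 29.6, 23.0 and 31.4 FPKM, 0.26 above the control mean with the controls 0.35 apart. The H3 sum of 7.13, 6.52 and 6.16 FPKM was lowest in AAV-IL27, with a difference of -0.13 and a gap of -0.11 from AAV-ctrl 1 to AAV-ctrl 2. Over all 63 members the sum in AAV-IL27 was 111% of the control mean of 553 ± 3.96 FPKM (SD, n = 2), a difference of 0.15 log2 units. This SD is small because control gaps of opposite sign cancel, 0.15 for H2A against -0.21, -0.18 and -0.35 for H1, H2B and H4. Without Hist1h2ao and Hist1h2ap the sums were 411 and 375 FPKM in the controls and 467 in AAV-IL27. The Hist2 cluster alone summed to 176, 173 and 213 FPKM, or 122% of its control mean.

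The members with a mean under 1 FPKM, left out of the counts above, were lower in AAV-IL27. The 46 of them summed to 14.5 FPKM in AAV-ctrl 1, 13.1 in AAV-ctrl 2 and 8.77 in AAV-IL27, or 63.6% of the control mean. For the 44 with a fragment estimate this was about 136 fragments (95% Poisson interval 114 to 161), 128 (107 to 152) and 80 (63.4 to 99.6), and the intervals cover counting error only. The AAV-IL27 interval lies below both others. The sum was lowest in AAV-IL27 within each class, at 46.2% of the control mean for the 4 H1 genes, 63.3% for 10 H2A genes, 60.02% for 11 H2B genes, 46.8% for 11 H3 genes and 82.9% for 10 H4 genes. These class sums rest on few fragments, about 8, 13 and 5 for H1 and 23, 19 and 13 for H2A. They were about 61, 60 and 35 for H2B, 20, 16 and 10 for H3 and 24, 20 and 17 for H4. Within every single class the 95% Poisson interval of AAV-IL27 overlaps those of both controls. The 37 members under 0.5 FPKM summed to 57.6% of their control mean, and the 7 members from 1 to under 5 FPKM to 99.8%.

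Low genes in general had lower sums in the same library. All 6942 named genes with a mean under 1 FPKM summed to 1566, 1708 and 1143 FPKM, or 69.8% of the control mean in AAV-IL27. Among the low histone genes, 17 of 46 lay below both controls, where 41.6% of all low genes did, and 6 lay above both, where 17.4% did. The low histone genes were thus not set apart from other low genes by these counts. The deepest of them was Hist2h2be, an H2B gene of the Hist2 cluster with about 33, 33 and 19 fragments, and without it the low members still summed to 63.9% of their control mean.

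**Figure D3:**
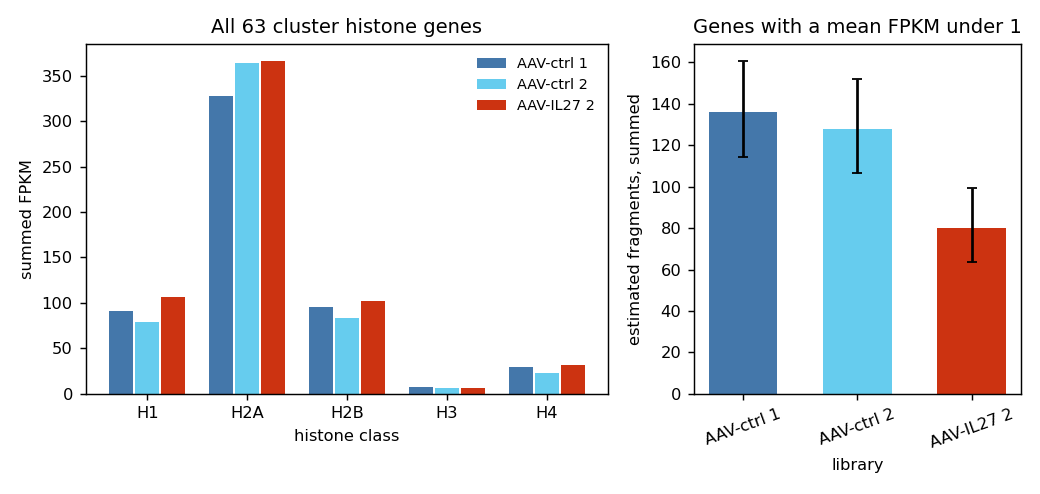
Left, summed FPKM of all 63 cluster histone genes by class in each library, with H2A the largest class at 327 to 367 FPKM. Right, estimated fragments summed over the members with a mean under 1 FPKM, 136, 128 and 80, with exact 95% Poisson intervals as bars.

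The annotated 3′ ends were compared with the levels, since these decide how a histone mRNA could be caught by oligo-dT. A mean of 1 FPKM was reached by 8 of 18 members whose transcript holds AATAAA after the stop codon (44.4%) and by 9 of 44 without it (20.5%). The 44 include 12 members annotated for at most 2 bases after the stop codon, which leaves no room for AATAAA. These 12 cannot tell whether the signal is present, so the 2 shares are not a like comparison. Members without AATAAA held the larger summed FPKM, 354, 386 and 397 against 196, 170 and 216. Exons were counted in 1 transcript per member, one with a stem-loop where there was one. By this count all 4 members with more than 1 exon reached a mean of 1 FPKM, against 13 of 58 with a single exon. Hist1h2bp was counted with a single exon, but it has 2 coding transcripts and a RefSeq span of 14079 bases. Its mean was 0.347 FPKM, so the count depends on the transcript chosen. Of the 12 members annotated for fewer than 20 bases after the stop codon without a stem-loop, 0 reached 1 FPKM. Among members with a stem-loop, 9 of 22 with at least 100 annotated bases beyond it reached 1 FPKM and 5 of 20 with fewer. Hist2h2aa1, the highest, had 35 bases beyond the stem-loop and no AATAAA. Hist1h1c had 840 bases beyond it and Hist3h2a had 1643.

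Low FPKM values came nearer to whole fragments with the RefSeq lengths than with the GENCODE lengths. RefSeq was shorter for some members (725 against 1560 bases for Hist1h1c) and longer for others (522 against 405 for Hist1h2ah). For 39 of the 41 members with a located stem-loop, the RefSeq gene ended 4 to 8 bases after it. In 26 single-exon members whose RefSeq and GENCODE lengths differed by at least 100 bases, 22 of 32 low values came within 0.15 of a whole fragment with the RefSeq length, and 1 of 14 with the GENCODE length. Fragments beyond the stem-loop would then lie outside the length used for these genes, and how many there were was not tested.

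Promoter sequences, 250 bases before to 50 bases after the start in RefSeq on GRCm38.p6, were matched for 57 members and searched on both strands. CCAAT, the box bound by NF-Y, was present in 49 of 57 (86.0%) against 41.1% of all 27025 promoters of this length, and in every matched H1, H2A, H2B and H3 gene but only 3 of 11 H4 genes. TATAAA was present in 31 of 57 (54.4%) against 15.7%. The octamer ATTTGCAT, known from H2B promoters and bound by Oct1, was present in 11 (19.3%) against 1.97%, namely in 6 of 16 H2A genes and 5 of 14 H2B genes and in none of the matched H1, H3 and H4 genes. Windows of neighbouring H2A and H2B genes on opposite strands can overlap, as those of Hist1h2ae and Hist1h2bg do. The same match can then count for both genes. A match describes the letters only.

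The 11 listed histone genes outside the clusters summed to 2097, 2026 and 2128 FPKM, most of it from 1 gene. H3f3a, which encodes the replacement histone H3.3, was at 1490, 1429 and 1500 FPKM, above the summed captured level of all 63 cluster genes in every library. Apart from H3f3a, only H3f3b, at 323, 298 and 372 FPKM, exceeded Hist2h2aa1, the highest cluster gene. Of 9 tested variant genes, 0 were lower and 0 higher, and their median difference was -0.01 log2 units. H2afx, the H2A variant phosphorylated at DNA breaks, was at 20.7, 23.3 and 13.9 FPKM, and H2afz, which encodes H2A.Z, at 147, 155 and 124 FPKM. Both lay below both controls, with differences of -0.62 and -0.28 log2 units. H1f0, the linker histone of non-dividing cells, was at 4.60, 3.86 and 3.09 FPKM.

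No factor that makes or cuts histone mRNA passed the threshold. Of 11 tested genes, 0 were lower and 0 higher, with a median difference of -0.11. Lsm10, a component of the U7 particle that cuts histone mRNA, was the highest at 31.0, 33.2 and 36.3 FPKM. Eri1, an exonuclease that trims histone mRNA ends, was at 2.13, 2.39 and 1.52 FPKM, and Cstf2, a cleavage factor, at 2.08, 2.44 and 1.47 FPKM. Slbp, whose product binds the stem-loop shown above, was chosen after its values were seen and stood at 20.4, 20.2 and 17.99 FPKM.

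Of 22 tested histone chaperones, which carry histones to DNA, 1 was lower (2.32% of all tested genes were) and 0 higher, and 17 lay below both controls (41.9% of all did). The median difference was -0.30 log2 units, and -0.094 over those with a mean of at least 5 FPKM. Mcm2, a subunit of the replicative helicase that also binds histones, fell by 1.48 on the log2 scale, from 4.73 and 6.23 FPKM to 1.30 FPKM. Asf1b, which hands over H3 and H4 at replication forks, was at 5.51, 6.99 and 2.86 FPKM, and Anp32e, which removes H2A.Z, at 6.02, 6.42 and 2.92 FPKM. Nap1l1, an H2A and H2B chaperone and the highest of the list, was at 26.2, 25.2 and 19.8 FPKM.

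Some genes of DNA replication and division passed the threshold in AAV-IL27. Of 18 tested S phase genes, 8 were lower, against 2.32% of all genes, and 17 lay below both controls, against 41.9%, with a median difference of -1.03 log2 units. Rrm2, a subunit of ribonucleotide reductase, was at 14.8, 15.3 and 3.54 FPKM, Pcna, the sliding clamp of DNA polymerases, at 23.4, 27.4 and 9.09 FPKM, and Mcm3 at 5.51, 6.93 and 1.68 FPKM. Of 16 tested mitosis genes, 4 were lower and all 16 lay below both controls, with a median of -0.87. Ube2c, the ubiquitin enzyme of mitotic exit, was at 27.9, 29.3 and 13.0 FPKM, and Ccna2, cyclin A, at 9.76, 11.1 and 4.33 FPKM.

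**Figure D4:**
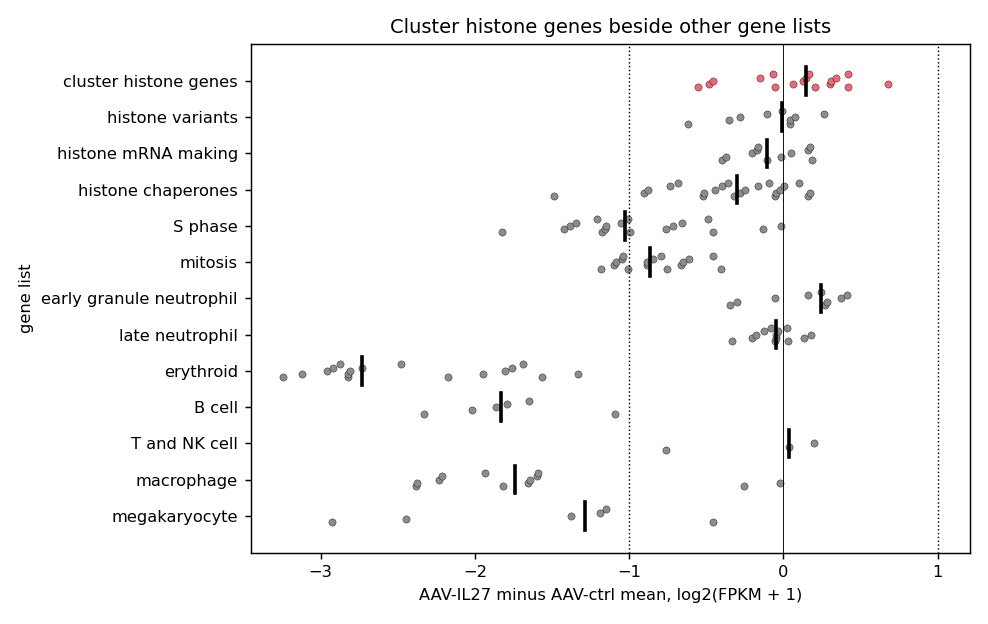
Difference of AAV-IL27 to the AAV-ctrl mean in log2(FPKM + 1) for each tested gene of the cluster histone set and of 12 other lists, with a black bar at each list's median and dotted lines at 1 log2 unit. The 17 cluster histone genes centre on 0.14 (-0.068 over all 63 members, not drawn), while S phase and mitosis genes centre on -1.03 and -0.87 and erythroid genes on -2.73.

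Markers of other marrow cells moved in the same library. All 17 erythroid genes were lower, their summed level being 20653, 13976 and 2374 FPKM, as were 5 of 6 tested B cell genes (31.2, 41.2 and 5.43 FPKM over the 6), 10 of 12 macrophage genes (893, 879 and 306 FPKM) and 4 of 6 tested megakaryocyte genes (53.5, 59.8 and 9.74 FPKM over the 6). None of the tested genes on these lists was at 0 in any library. Of the 3 tested T and NK cell genes 0 were lower or higher (13.6, 14.6 and 12.7 FPKM over the 3). The 9 early granule genes of neutrophil precursors had a median difference of 0.25 (1633, 1829 and 1455 FPKM) and the 13 late neutrophil genes one of -0.05 (187730, 184098 and 177498 FPKM), with 0 lower or higher in either list. Most of the early granule sum was Chil3, at 1426, 1586 and 1220 FPKM. Of the 9, 6 lay above both controls (38.9% of all tested genes did) and 2 below both, Chil3 among them (41.9% did). Fewer cells of a type and less RNA per cell cannot be told apart in these bulk libraries. The part that erythroid, B lineage, macrophage and megakaryocyte RNA and dividing cells had in the histone values was not tested.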

How the data were processed

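BM Ly6G+ cells were profiled by RNA-seq (oligo-dT selection, dUTP strand marking, DNBSEQ platform). The authors deposited FPKM values with 2 decimals for 16073 rows, of which 1 without a symbol was left out. The submitters' processing notes name mm10, and the aligner, the counting tool and any use of strand in counting are not given in the sources used here. Groups were read from the sample titles. A further column, headed as another IL-27 replicate, fits no sample in the labels and was left aside (1 column of per-sample values in all), so a second AAV-IL27 library may exist that was not analysed here. The paper gives 2 per group for RNA-seq of marrow cells it calls Gr-1+, taken 3 weeks after the vector.

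Depth was estimated from the spacing of low FPKM values in 10787 genes that GENCODE M21 links to 1 RefSeq transcript, each length being shortened by 80 nt. The fit placed 70.7%, 72.9% and 68.9% of 314, 303 and 296 low values within 0.15 of a whole fragment. Since many did not fall on whole fragments, no count test was run. Fragments of members used the RefSeq gene length and were estimated for 57 single-exon members, and intervals are exact Poisson intervals at 95%.

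Differences used a pseudocount of 1, and genes needed a mean FPKM of at least 1 over the 3 libraries. No p-value was computed, since AAV-IL27 had 1 listed library, and whether the AAV-ctrl libraries came from separate mice rests on the labels. The genes named were members with a mean FPKM of at least 5, the highest member of each class, all Hist3 and Hist4 members, and for each list its highest gene and the 3 with the largest differences. Other members were named, and sums by level and by pair of copies (FPKM and fragments) were chosen, after values were seen. The members, lists (histone variants, histone mRNA factors, chaperones, S phase, mitosis and 7 marker lists) and rules were chosen with earlier results of these data known. Copies were compared by alignment of GENCODE transcripts. Alternatives were a pseudocount of 0.1, other filters and thresholds, median-ratio or equal-total rescaling, and fits without 1 of the AAV-ctrl libraries. The rules were tested on simulated data. Calculations were run with pandas 2.3.3, numpy 2.4.6, Biopython 1.88, scipy 1.17.1 and matplotlib 3.10.9 under Python 3.11.15.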

Additional observations from a re-analysis of the deposited data

How the results depend on the processing

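No cluster histone gene was 1 log2 unit lower or higher than the AAV-ctrl libraries under a pseudocount of 0.1, without a filter on low values, at a mean FPKM of at least 5, under either rescaling or without either AAV-ctrl library. At a threshold of 0.5, 1 of the 17 tested was lower (Hist1h2ao) and 1 higher (Hist1h4m), beside 640 and 143 of all 9130 tested genes. The fragments of Hist1h2ao and its copy Hist1h2ap together were not separated from AAV-ctrl 1. For Hist1h4m the intervals of AAV-ctrl 2 and AAV-IL27 overlap. The count of all lower genes was 396 with a pseudocount of 0.1 and 93 with the filter at 5 FPKM. The count of all higher genes was 40 and 49 without AAV-ctrl replicate 1 and 2. The median difference of the cluster histone genes turned to -0.068 without a filter, where the 46 low members enter, and was 0.25 at a mean FPKM of at least 5. The difference of their summed FPKM was 0.19 with equal FPKM totals, 0.21 by median ratios and 0.25 without Hist1h2ao and Hist1h2ap, which was chosen after seeing the data.

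Medians of the other lists moved as follows, and the cause was not tested. With a pseudocount of 0.1 they were -0.41 for chaperones, -1.34 for S phase, -1.04 for mitosis, -2.67 for B cells, -1.90 for macrophages and -2.27 for megakaryocytes. Without a filter they were -0.037 for histone mRNA factors, -1.13 for B cells and -0.021 for T and NK cells. At a mean FPKM of at least 5 they were 0.016 for histone variants, -0.094 for chaperones, -1.04 for mitosis, -2.18 for B cells and -2.69 for megakaryocytes. With equal FPKM totals and by median ratios they were 0.033 and 0.050 for variants, -0.068 and -0.051 for histone mRNA factors, -0.010 and 0.0077 for late neutrophils and -1.70 and -1.68 for macrophages, and 0.088 by median ratios for T and NK cells. Leaving out 1 AAV-ctrl library gave -0.018 to -0.012 for variants, -0.12 to 0.0010 for histone mRNA factors, -0.083 to -0.042 for late neutrophils, -2.77 to -2.53 for erythroid genes, -0.14 to -0.060 for T and NK cells, -1.80 to -1.78 for macrophages and -1.52 to -1.14 for megakaryocytes.

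No paired analysis was possible because AAV-IL27 has 1 library, and so at most 1 pair with the same number exists. At the estimated depth, 42 of the 57 members with a fragment estimate had at most 10 fragments in every library, so their single values carry no comparison.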
